A study of Mus musculus with 24 samples.

Results

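Potassium channel genes were taken as every gene whose symbol begins with Kcn among the probe sets that carry exactly 1 gene symbol, with the probe set of the highest mean over all 24 arrays standing for each gene. The rule gave 84 genes of the 18193 measured. By symbol, 31 encode voltage-gated pore subunits, 15 inward rectifiers, 12 two-pore channels, 8 calcium-activated channels (the sodium-activated and pH-gated relatives Kcnt1, Kcnt2 and Kcnu1 included) and 15 auxiliary subunits, and 3 are noncoding RNAs named after a channel gene.

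The study measured RNA from the brains of male mice about 12 weeks old on Affymetrix arrays, to find transcripts of cells that express Homer1a, an activity-induced splice form of a synaptic scaffold gene, and to ask how sleep loss changes them. Mice were kept awake by gentle handling for 6 hours from light onset, or left undisturbed, and all were killed at zeitgeber time 6. Pull-down RNA came from 6 sleep-deprived and 6 control mice perfused with formaldehyde; it is poly(A) RNA precipitated with anti-FLAG beads by mRNA tagging, a method that relies on a tagged protein bound to the poly(A) tails of messages in the cells that make it. Supernatant arrays (n = 4) hold the total RNA left behind by such a precipitation, and whole-brain arrays hold total RNA of unfixed brain from 4 sleep-deprived and 4 control mice. By title, supernatants 15, 14 and 13 came from sleep-deprived mice and 16 from a control, but the labels of 13 conflict on treatment. The supernatants were therefore used as 1 group regardless of treatment. Treatment may be unbalanced in that group, whereas the pull-down mean weights both conditions equally. The transgene, its promoter and the strain are not given in the sources used here, and a brain extract holds many cell types at once. Fewer cells of a type and less RNA per cell therefore cannot be told apart in any extract.

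Potassium channels let potassium leave or enter the cell and so set the resting potential, the length of the action potential and the firing rate. Voltage-gated channels open on depolarisation and repolarise the spike, calcium- and sodium-activated channels produce the afterhyperpolarisation, inward rectifiers hold the membrane near rest (some of them under G-protein control), and two-pore channels carry the background leak. In flies and mice, mutations of some voltage-gated subunits are known to shorten sleep.

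The extracts differed in ways that touch every value below. The array median of log2 intensity was 4.37 to 5.70 in the pull-downs, 6.09 to 6.21 in the supernatants and 6.04 to 6.24 in whole brain, and the 18S ribosomal RNA control probe sets read 6.83 to 11.1, 14.2 to 14.4 and 13.8 to 13.9. The 3′ minus 5′ difference of the Gapdh control probe sets, a measure of how evenly the message was copied, was 3.29 to 5.96 in the pull-downs and 2.49 to 2.95 in whole brain. The median gene was 0.64 lower in the pull-down than in whole brain and 0.66 lower than in supernatant on the log2 scale. Such array-wide gaps remain in the deposited values and enter every higher or lower call made on that scale. The pull-down was fixed, poly(A)-selected and, by the labels, amplified from a small input, and the part of these steps in any difference between extracts was not tested. Homer1 read 1.42 ± 0.20 (SE) log2 higher in the pull-down than in whole brain at the probe set 1436387_at, and 1.92 ± 0.27 lower at 1421768_a_at (limma adjusted p = 5.43e-07 and 3.79e-07).

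Of the 84 genes, 10 were higher and 60 lower in the pull-down than in whole brain (limma, adjusted p under 0.05 over all probe sets), where 12.9% and 68.8% of all genes were. Against supernatant, 11 were higher and 53 lower, where 17.4% and 58.7% of all genes were. Both comparisons together called 8 genes higher, which is 9.52% of the family and 11.9% of all genes, and 53 genes lower, which is 63.1% and 56.7%. The family's median difference was −0.86 against whole brain and −0.78 against supernatant. Measured from the median of all genes, 35 members lay above it and 49 below against whole brain, and 37 and 47 against supernatant. These shares lay near the background, and the 2 comparisons share the pull-down arrays.

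**Figure D1:**
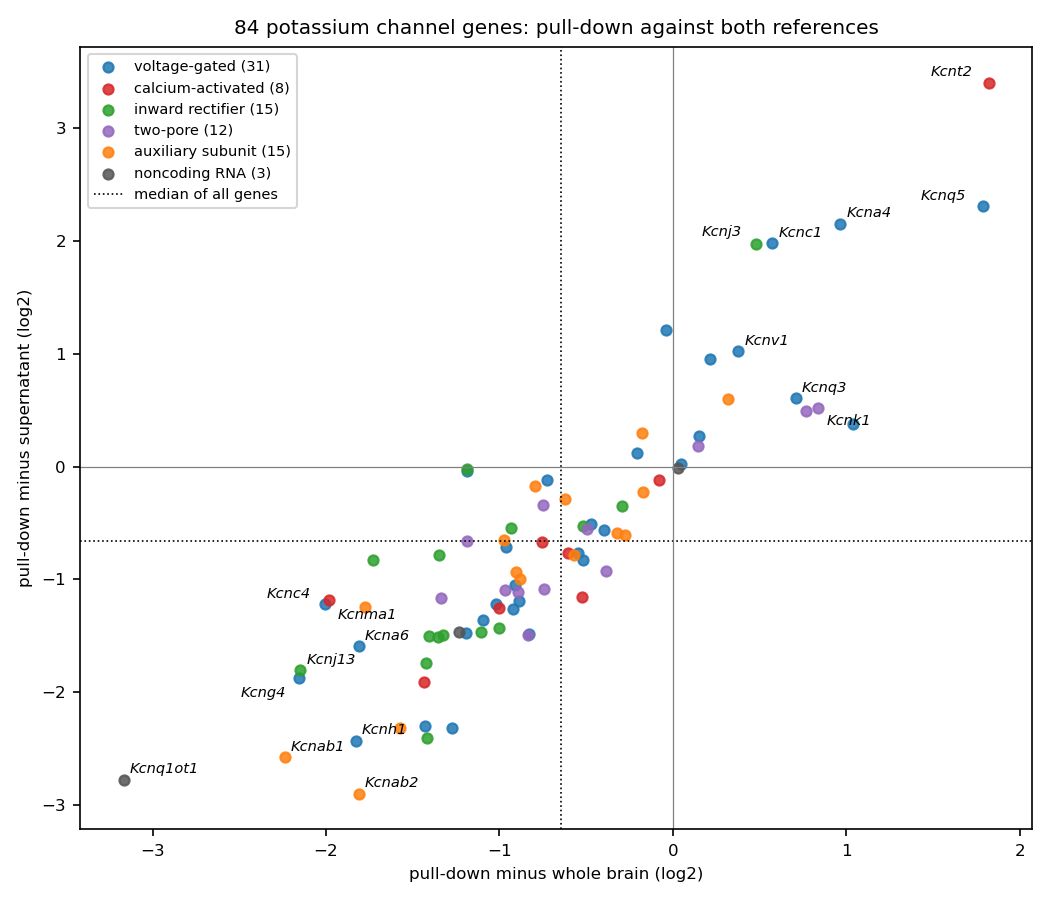
Difference between pull-down and whole brain (horizontal axis) and between pull-down and supernatant (vertical axis), both in log2, for the 84 potassium channel genes, coloured by class, with dotted lines at the medians of all 18193 genes (−0.64 and −0.66). Most points lie below 0 on both axes, and Kcnt2 and Kcnq5 lie farthest to the upper right.

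The 8 genes higher in the pull-down than in both references were Kcnt2, Kcnq5, Kcna4, Kcnq3, Kcnc1, Kcnk1, Kcnj3 and Kcnv1. They belong to 4 classes and include 5 of the 31 voltage-gated genes, 1 of 8 calcium-activated, 1 of 15 inward rectifiers, 1 of 12 two-pore genes and none of the 15 auxiliary subunits. The probe set that stands for a gene was chosen on a mean that includes the 12 pull-down arrays tested here. Where the probe sets of a gene disagree, that choice leans toward one that is high in the pull-down. The higher calls are therefore not independent of the choice of probe set.

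The 250 bases upstream of the RefSeq start (GRCm38.p6) are shown for 3 of the genes higher in both comparisons, as a description of sequence. Whether these sequences have a part in the differences between extracts was not tested. Capitals mark the GC box GGGCGG on either strand, the site that Sp-family factors are known to bind. Kcnt2 lies at chr1:140245468-140245717, Kcna4 at chr2:107290339-107290588 and Kcnc1 at chr7:46396218-46396467, all on the plus strand.
Kcnt2: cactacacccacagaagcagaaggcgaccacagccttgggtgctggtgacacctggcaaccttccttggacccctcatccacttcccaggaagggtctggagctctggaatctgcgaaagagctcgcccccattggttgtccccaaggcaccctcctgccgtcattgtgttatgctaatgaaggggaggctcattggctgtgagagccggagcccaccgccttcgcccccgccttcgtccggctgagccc
Kcna4: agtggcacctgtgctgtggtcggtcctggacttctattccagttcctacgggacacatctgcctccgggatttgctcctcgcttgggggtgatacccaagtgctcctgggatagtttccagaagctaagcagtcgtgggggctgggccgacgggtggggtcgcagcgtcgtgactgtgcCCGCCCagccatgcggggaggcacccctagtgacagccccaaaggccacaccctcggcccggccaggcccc
Kcnc1: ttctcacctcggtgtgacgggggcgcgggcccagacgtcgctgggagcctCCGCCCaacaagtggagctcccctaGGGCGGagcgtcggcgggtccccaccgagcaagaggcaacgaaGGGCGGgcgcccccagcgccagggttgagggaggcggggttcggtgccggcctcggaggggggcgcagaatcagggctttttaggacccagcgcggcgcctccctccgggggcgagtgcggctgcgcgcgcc
The window of Kcnt2 held 0 GC boxes, that of Kcna4 held 1 and that of Kcnc1 held 3. RefSeq windows were matched for 64 of the 84 genes, and 50% of those held a GC box, against 32.9% of 27025 genes with a window; among the 6 matched genes higher in the pull-down it was 33.3%, and among the 40 matched genes lower in it, 55%. The TATA box TATAAA was present in 3.12% of the family's windows and 13% of all. The E-box CACGTG, to which clock proteins are known to bind, was present in 4.69% and 6.05%. The cAMP response element TGACGTCA, which binds an activity-regulated factor, was present in 0 of the 64 windows and 1.62% of all. Each motif was searched on both strands and no motif holds another; median GC content was 58.8% in the family and 52% in all windows.

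Among voltage-gated genes, Kcnq5 and Kcnq3, whose products form the M-current channels that muscarinic receptors close, were both higher in the pull-down. Kcnq5 read 9.83, 9.93 and 10.35 (lowest, median and highest) in the 6 sleep-deprived pull-downs and 9.002, 9.95 and 10.46 in the 6 control pull-downs. It read 7.39, 7.65, 8.16 and 7.41 in the supernatants, 8.27, 8.14, 8.20 and 8.17 in sleep-deprived whole brain and 8.13, 8.20, 8.01 and 8.29 in control whole brain. Every pull-down lay above every other array; the difference was 1.79 ± 0.16 (SE) against whole brain, 3.45-fold, and 2.31 ± 0.20 against supernatant (limma adjusted p = 1.56e-10 and 1.87e-10). Kcnq3 was 0.71 ± 0.15 and 0.61 ± 0.19 higher (adjusted p = 0.000125 and 0.00533), with overlap in both comparisons because 1 control pull-down read 9.38. Kcnq1, known mainly from heart and epithelia, was lower in both on the deposited scale, by −0.92 and −1.26. It was dim, at 4.76 to 5.43 in whole brain, where the array medians were 6.04 to 6.24. After quantile normalization and centring it differed from whole brain by 0.07 and 0.23 and was not called.

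Kcna4, a fast-inactivating channel of axons and terminals, read 9.75, 9.98 and 10.41 in the sleep-deprived pull-downs and 9.69, 10.19 and 10.68 in the controls. The supernatants read 7.60, 8.31, 8.42 and 7.47, sleep-deprived whole brain 9.05, 9.10, 9.10 and 9.06, and control whole brain 9.21, 9.18, 9.21 and 9.20. Every pull-down was again above every other array, by 0.97 ± 0.15 and 2.15 ± 0.19 on average (limma adjusted p = 1.75e-06 and 2.16e-10). At the probe sets used and on the deposited scale, the other shaker-type genes went the other way or were not called. Kcna1 (−1.19 and −1.48), Kcna3 (−1.27 and −2.32), Kcna6 (−1.81 and −1.60) and Kcna7 (−0.91 and −1.05) were lower in both, Kcna2 was lower than in whole brain only (−0.73, adjusted p = 0.00212; −0.12 and 0.678 against supernatant), and Kcna5 differed by 0.15 (adjusted p = 0.391) and 0.27 (adjusted p = 0.247). After centring, Kcna1, Kcna3 and Kcna7 were not called against whole brain (−0.04, −0.12 and 0.25, limma adjusted p = 0.851, 0.475 and 0.0703), while Kcna6 stayed lower in both. A second Kcna4 probe set, 1422255_at, was itself lower in both (−1.27 and −1.58). The probe sets 1455785_at of Kcna1 and 1441049_at of Kcna6 were called in neither. Kcna1 and Kcna2 encode the low-threshold channels beside the nodes of axons, where a partner described further on clusters them.

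The shaw-type genes, which support fast spiking, were split. Kcnc1 read 10.998, 11.49 and 11.73 in sleep-deprived and 10.87, 11.34 and 11.76 in control pull-downs; the supernatants read 9.74, 9.60, 9.38 and 8.88 and the 8 whole brains 10.55 to 11.19. Its pull-downs lay above every supernatant and overlapped whole brain, with differences of 1.98 ± 0.18 and 0.57 ± 0.15 (limma adjusted p = 7.11e-10 and 0.000895). Kcnc2 was 1.04 ± 0.15 higher than in whole brain (adjusted p = 9.68e-07) but 0.38 ± 0.19 from supernatant (adjusted p = 0.078). Kcnc4 was lower in both, by −2.01 and −1.22.

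Of the 31 voltage-gated genes, 16 (51.6%) were lower and 5 (16.1%) higher in both comparisons, near the 56.7% and 11.9% of all genes. Quantile normalization gave 6 lower and 11 higher (19.4% and 35.5%), where 12.6% and 30.9% of all genes were. Centring gave 3 and 13 (9.68% and 41.9%), where 6.35% and 49.4% of all genes were. The remaining voltage-gated families follow, on the deposited scale. The silent subunits Kcng1, Kcng2, Kcng4, Kcns1, Kcns3 and Kcnv2, which modify other channels without forming one alone, were lower in both, whereas Kcnv1, a silent subunit too, was 0.38 ± 0.14 and 1.03 ± 0.17 higher (limma adjusted p = 0.0134 and 7.94e-06) and lost its call against whole brain in the control groups taken alone (0.22, adjusted p = 0.296). Kcns2 was higher than in supernatant only (0.96 ± 0.16), and Kcnf1 was lower than in whole brain only (−1.18 ± 0.19). Among the ether-à-go-go genes, Kcnh1, Kcnh3, Kcnh7 and Kcnh8 were lower in both and Kcnh2 and Kcnh5 were not called in either. Of the A-type genes, Kcnd1 was lower than in whole brain (−0.47, adjusted p = 0.0229) with −0.51 against supernatant (adjusted p = 0.0502). Kcnd3 was −0.04 ± 0.16 from whole brain and 1.21 ± 0.21 above supernatant. Kcnd2 was not called in either at the probe set that stands for it (−0.55 and −0.77, adjusted p = 0.0886 and 0.0631), but at 1422835_at it was higher in both (0.59 and 1.75, adjusted p = 0.00334 and 1.18e-07); it is the 1 member higher in both only at a probe set not used here.

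Kcnt2, the sodium-activated Slick channel, gave the largest positive difference of the family in both comparisons. The sleep-deprived pull-downs read 8.65, 8.91 and 9.56 and the controls 8.27, 9.23 and 9.45. The supernatants read 5.92, 5.66, 6.03 and 5.03, sleep-deprived whole brain 7.31, 7.10, 6.82 and 7.15, and control whole brain 7.49, 7.58, 7.30 and 7.19. The 3 extracts did not overlap: the pull-down was 1.82 ± 0.17 (SE) above whole brain, 3.54-fold, and 3.41 ± 0.21 above supernatant, and whole brain was 1.59 ± 0.22 above supernatant (limma adjusted p = 3.34e-10, 1e-12 and 2.91e-05). Kcnt1, its close relative Slack, was lower in both on the deposited scale (−0.75 ± 0.17 and −0.67 ± 0.21). After quantile normalization it differed by 0.25 and 0.26 and was not called. After centring it was higher in both (0.40 and 0.51, limma adjusted p = 0.0432 and 0.0485). On the deposited scale 6 of the 8 calcium-activated genes (75%) were lower in both, where 56.7% of all genes were. Among them were the 4 small-conductance and intermediate-conductance genes Kcnn1 to Kcnn4, which produce the afterhyperpolarisation. Kcnn3 was the lowest of these 4, at −1.43 and −1.91 with no overlap of its arrays. Kcnma1, the large-conductance BK channel, was lower by −1.98 ± 0.21 and −1.19 ± 0.27. After centring Kcnn1 and Kcnn2 were instead higher than in whole brain (0.63 and 0.55, limma adjusted p = 6.59e-07 and 0.0154). In the class, quantile normalization gave 2 lower and 2 higher in both, and centring 1 and 3.

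**Figure D2:**
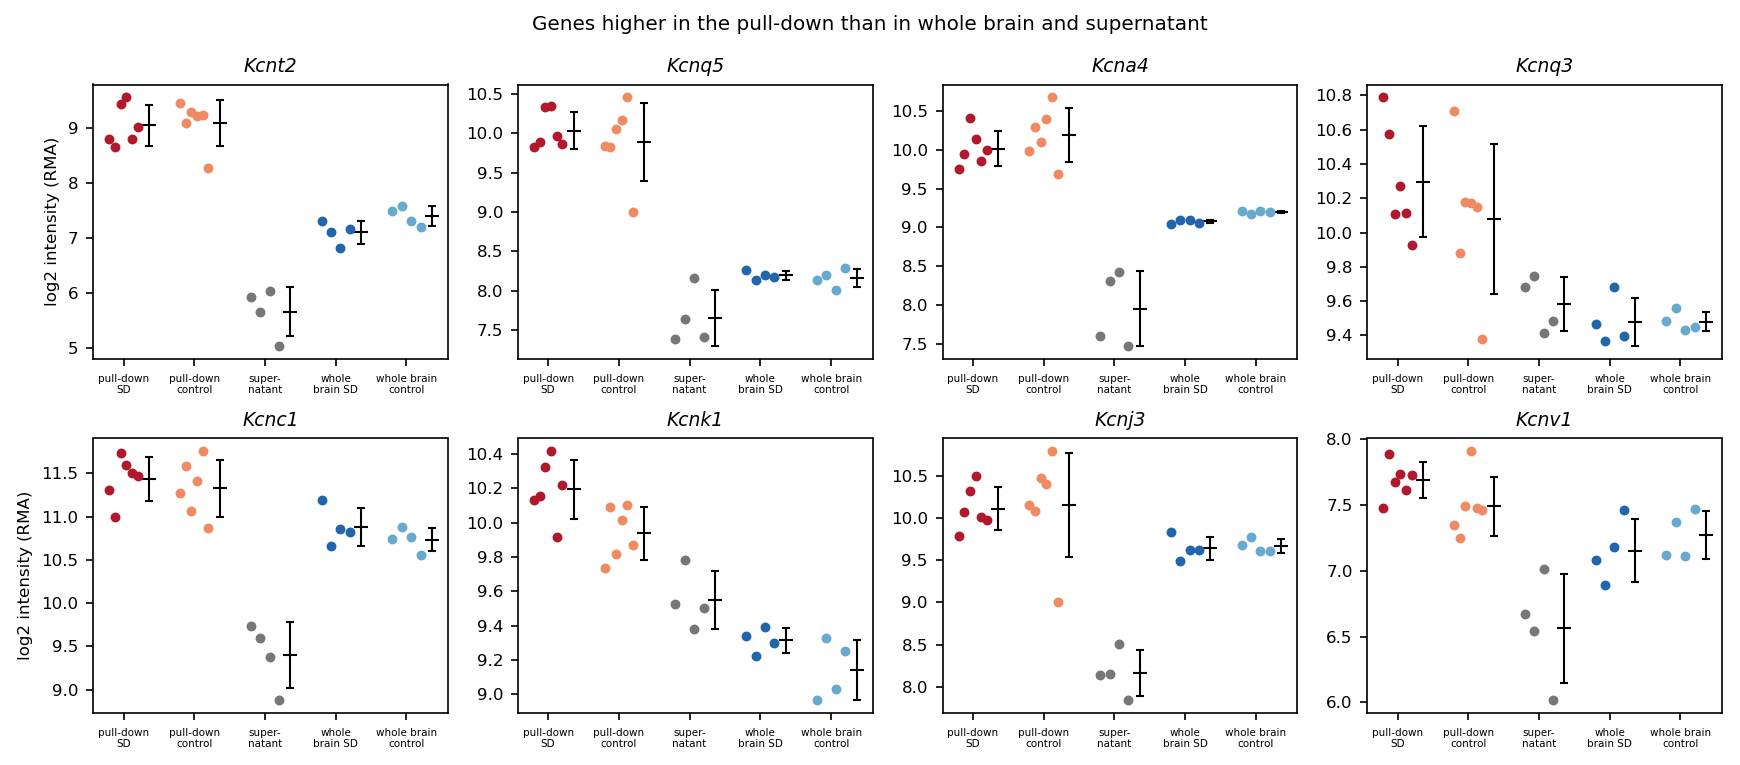
Log2 intensity of the 8 genes higher in the pull-down than in both references, with 1 point per array in the 5 groups (SD stands for sleep deprivation) and the mean ± standard deviation beside each group; vertical axes differ between panels and do not start at 0. For Kcnt2, Kcnq5 and Kcna4 all 12 pull-down arrays lie above the 8 whole-brain and the 4 supernatant arrays.

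On the deposited scale 13 of 15 inward rectifiers were lower than in whole brain, where 68.8% of all genes were, and 12 (80%) were lower in both comparisons, where 56.7% were; the class median was −1.32 against whole brain. After quantile normalization 1 of the 15 was lower in both and 2 were higher (6.67% and 13.3%), where 12.6% and 30.9% of all genes were. After centring it was 0 and 3 (0% and 20%), where 6.35% and 49.4% of all genes were. Kcnj3, a G-protein-gated subunit, was higher, at 0.48 ± 0.17 and 1.97 ± 0.22 (limma adjusted p = 0.0122 and 1.08e-08). It read 9.78, 10.04 and 10.50 in sleep-deprived and 9.01, 10.28 and 10.79 in control pull-downs, and 8.14, 8.16, 8.51 and 7.84 in supernatant. Its call against whole brain was lost within the control groups alone (0.49, adjusted p = 0.0714) and within the sleep-deprived groups alone (0.47, adjusted p = 0.0818). At the probe sets used and on the deposited scale its usual partners were lower: Kcnj6 by −1.41 and −2.41, Kcnj9 by −1.42 and −1.74. After centring neither was called against whole brain (−0.26 and −0.27, limma adjusted p = 0.471 and 0.727). The Kcnj9 mean joins a high and a low set of pull-downs, and Kcnj3 has another probe set called lower than in whole brain. Opposite movement of the subunits is therefore not shown. Kcnj10, the astrocyte channel that clears extracellular potassium, was −1.35 ± 0.18 and −0.78 ± 0.23, and its partner Kcnj16 was −1.19 ± 0.17 against whole brain with −0.02 ± 0.21 against supernatant (adjusted p = 0.938). Kcnj8 and Kcnj13, known from pericytes and from choroid plexus, were −1.73 and −2.15 against whole brain. Markers of vessels moved the same way: 10 of 10 endothelial and pericyte genes were lower than in whole brain and 8 of 10 in both comparisons, with a mean level of 4.73 to 5.67 in the pull-downs, 6.38 to 6.98 in supernatant and 7.38 to 7.51 in whole brain. Of the astrocyte list, 7 of 10 genes were lower and 1, Gfap, was higher in both. The part of these cells in the channel values was not tested.

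Kcnj9, which encodes the GIRK3 subunit, varied more between pull-downs than any other member. Its used probe set, 1450712_at, spanned 4.46 log2 units over the 12 pull-down arrays, a 22-fold range, against a median range of 1.61 over the family and 1.59 over all genes, and 0.181% of genes spanned more. The 5 pull-downs with the most 18S signal (8.58 to 11.1) read 10.56 to 11.10, where whole brain read 9.59 to 10.76; the other 7 (18S 6.83 to 8.07) read 6.65 to 8.57. Both sides of that gap hold sleep-deprived and control arrays. The second probe set, 1428602_at, read 6.16 to 7.13 on the former and 6.48 to 6.98 on the latter and showed no such gap. Whether the gap goes with the carry-over of ribosomal RNA was not tested.

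**Figure D3:**
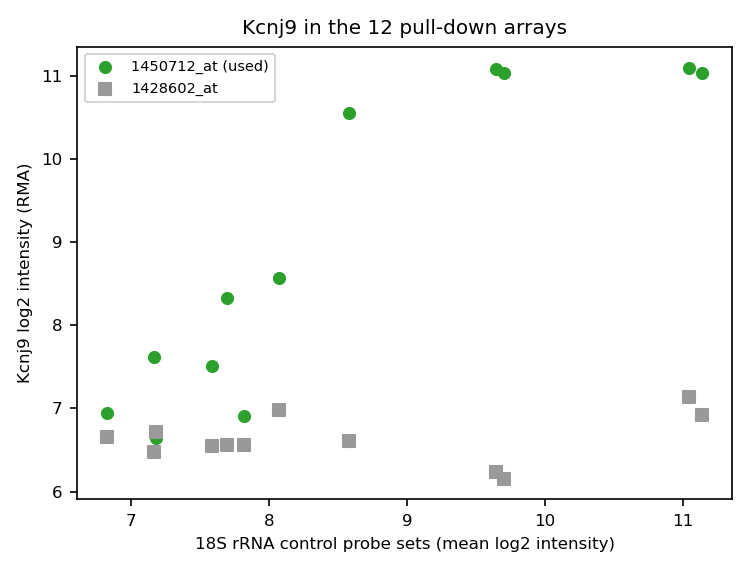
Log2 intensity of Kcnj9 at 2 of its probe sets against the mean log2 intensity of the 18S control probe sets, for the 12 pull-down arrays. At 1450712_at the 5 arrays with the most 18S signal lie between 10.56 and 11.10 and the other 7 between 6.65 and 8.57, while 1428602_at stays between 6.16 and 7.13.

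Of the 12 two-pore genes, 8 (66.7%) were lower in both comparisons, near the 56.7% of all genes. After quantile normalization and after centring 0 were lower, where 12.6% and 6.35% of all genes were. On each of these scales 5 (41.7%) were higher, where 30.9% and 49.4% of all genes were. Kcnk1, or TWIK1, was higher, by 0.84 ± 0.12 and 0.52 ± 0.15 (limma adjusted p = 3.52e-07 and 0.00248). It read 9.92, 10.19 and 10.42 in sleep-deprived and 9.73, 9.94 and 10.10 in control pull-downs, all above the 8 whole-brain arrays (8.96 to 9.39) and overlapping the supernatants, of which 1 read 9.78. Kcnk2, the mechanically gated TREK1 channel, was 0.77 ± 0.18 above whole brain (adjusted p = 0.000461) and 0.50 ± 0.23 above supernatant (adjusted p = 0.0512). The acid-sensitive Kcnk3 was lowest of the class against whole brain, at −1.34 ± 0.19 and −1.17 ± 0.24.

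Of the 15 auxiliary subunits, 9 (60%) were lower in both comparisons, near the 56.7% of all genes, and none was higher. Quantile normalization gave 4 higher and 4 lower (26.7% each), where 30.9% and 12.6% of all genes were. Centring gave 6 and 1 (40% and 6.67%), where 49.4% and 6.35% of all genes were. Among the cytoplasmic beta subunits of shaker-type channels, Kcnab1 differed by −2.24 ± 0.33 and −2.58 ± 0.41 and Kcnab2 by −1.81 ± 0.28 and −2.90 ± 0.36. The third, Kcnab3, was lower than in whole brain (−0.80, adjusted p = 0.000494) and not called against supernatant (−0.17, adjusted p = 0.51). A second Kcnab1 probe set, 1448468_a_at, was called in neither (−0.23 and −0.11, adjusted p = 0.144 and 0.599). Kcnab1 had its 2 highest pull-down values, 7.86 and 7.34, on the 2 arrays with the most 18S signal, sleep-deprived 1 and control 3. The same held for 18 of the 84 genes (21.4%) and for 16.6% of all genes, and without these 2 arrays the counts of members higher and lower in the pull-down than in either reference stayed within 1.5 times. Kv-channel-interacting proteins, calcium-binding partners of the A-type channels, were split between Kcnip1 (−1.57 and −2.32) and Kcnip3 (−1.78 and −1.24), lower in both, Kcnip2 (−0.27 and −0.61, adjusted p = 0.255 and 0.0534), not called, and Kcnip4, higher than in supernatant only (0.60 ± 0.22). At 1450370_a_at, its brightest probe set in whole brain, Kcnip4 was instead lower in both (−2.08 and −2.37, adjusted p = 1.12e-08 and 8.32e-08).

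Kcnq1ot1, a long nuclear antisense RNA that silences its imprinted neighbours, had the largest negative difference of the family against whole brain. It read 4.56, 5.52 and 6.86 in sleep-deprived and 5.14, 5.61 and 7.17 in control pull-downs, against 8.51, 8.03, 8.91 and 8.56 in supernatant and 8.67 to 9.14 in whole brain. No pull-down overlapped another array; the differences were −3.17 ± 0.24 and −2.78 ± 0.31 (limma adjusted p = 1.53e-11 and 1.38e-08). Of its 6 probe sets 5 were lower than in whole brain, from −1.64 to −4.25, and 1 was not called (−1.09, adjusted p = 0.0658).

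Over the family, every pull-down array lay above every whole-brain array for 4 genes and below for 22, where 5.69% and 20% of all genes did. Against supernatant it was 8 and 30 genes, where 10.5% and 23.1% of all genes did. Genes with bright probe sets were more often higher: at a whole-brain intensity of 9 or more, 5 of 14 members and 31.7% of all genes were higher in both, between 6 and 9 it was 3 of 40 and 13.6%, and below 6 it was 0 of 30 and 2.66%. These bands use the same whole-brain arrays as the comparison. In all 8 whole-brain arrays, 26 members read below the array median, and 16 did so in all 24 arrays. Kcnv2, 1 of these 16, read 2.28 to 3.55 over the 24 arrays. Lower calls for such members compare dim signals.

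How far a gene counted as higher depended on the probe set. Several probe sets were present for 46 of the 84 genes, and against whole brain 6 genes were called in opposite directions at different ones: Kcna4, Kcnc1, Kcnj3, Kcnk1, Kcnq3 and Kcnq5. Against supernatant it was 11 genes, these 6 and Kcna2, Kcnd3, Kcnip4, Kcns2 and Kcnv1. Kcna2, for example, was 1.60 higher than in supernatant at 1440759_at and −2.72 at 1422197_at, and Kcnd3 was 1.21 higher at 1435720_at and −2.52 at 1426070_a_at. Taking the probe set brightest in whole brain turned a called direction for Kcnq5 in both comparisons and for Kcnip4 against supernatant. Kcnq5 was 1.79 higher at 1457587_at and 0.46 ± 0.15 higher at 1427426_at but −3.58 ± 0.27 at 1441071_at, which is the brightest of the 3 in whole brain. Kcnc1 read 0.57 at 1443855_at, −2.25 at 1456965_at and −2.84 at 1423559_at, and Kcna4 read 0.97 at 1438613_at and −1.27 at 1422255_at. Kcnt2 has a single probe set, and neither of the other probe sets of Kcnv1 was called lower than in whole brain, though 1453273_at was lower than in supernatant (−0.67, adjusted p = 0.003). Such splits were common on these arrays: of the 7 genes higher in both with several probe sets, 6 (85.7%) had another that was lower than in whole brain, and so did 90.9% of the 1722 genes of that kind over the whole array. Lower calls depended on it too: of the 27 genes lower in both with several probe sets, 18 were lower in both at every one and 8 had 1 or more that was called in neither comparison. Which part of each transcript a probe set reads was not analysed here.

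**Figure D4:**
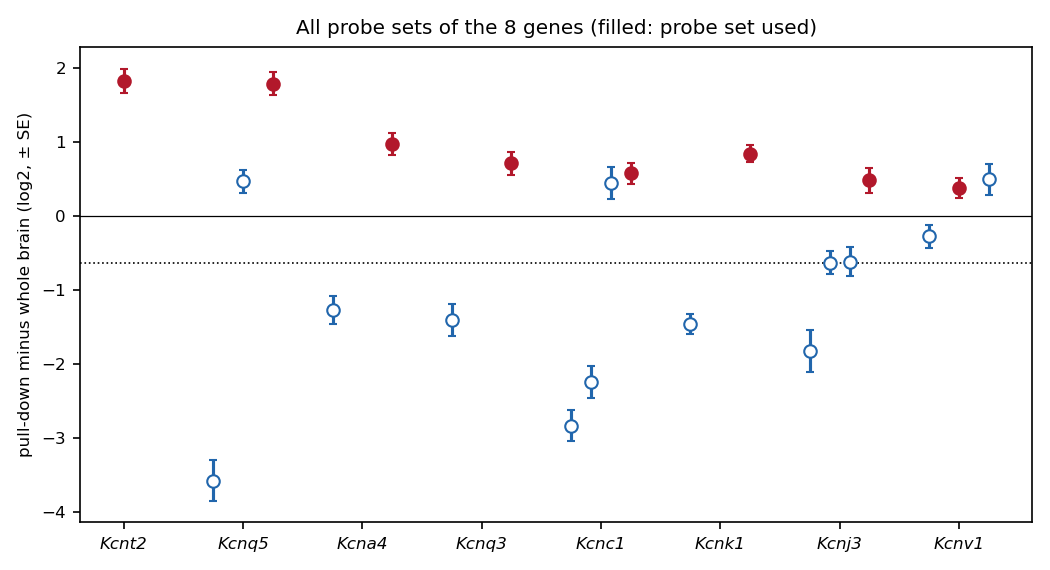
Pull-down minus whole brain (log2, ± SE) for every probe set of the 8 higher genes; filled points are the probe sets that stand for the gene, open points the others, and the dotted line is the median of all genes (−0.64). Kcnq5 runs from 1.79 to −3.58, and 6 of the 8 genes have a probe set called lower than in whole brain.

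The direction of many of the lower calls also depended on the scaling. Both other scalings raise the pull-down against the references for most genes, so they bear on the lower calls and are no test of the higher ones. Quantile normalization moved the median of all genes to 0.23 and left 25 members higher and 14 lower in both comparisons (30.9% and 12.6% of all genes), and centring moved it to 0.51 and left 31 and 6 (49.4% and 6.35%). Of the 53 lower genes, 14 stayed lower after quantile normalization and 1, Kcnk5, became higher. After centring 6 became higher (Kcnmb4, Kcne1, Kcnt1, Kcnj15, Kcnk5 and Kcnv2). Another 6 stayed lower after centring (Kcnab1, Kcnn3, Kcnq1ot1, Kcna6, Kcnh1 and Kcng4). Statements that a gene was lower therefore hold for the deposited scale, and the 6 that stayed lower were alone in being lower than both references on all 3 scales. Of the 6, Kcnn3 and Kcng4 have a single probe set, and the other 4 have another that was called in neither comparison on the deposited scale: 1448468_a_at of Kcnab1 (above), 1435994_at of Kcnh1 (−0.18 and −0.07), 1441049_at of Kcna6 (0.04 and −0.22) and 1442029_at of Kcnq1ot1 (−1.09 and 0.61).

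Whole brain and supernatant, both total RNA, were closer: 10 members were higher in whole brain and 5 lower, where 13.2% and 1.31% of all genes were, with a family median of −0.06. The 10 were Kcnt2, Kcnj3, Kcnc1, Kcnd3, Kcna4, Kcnj16, Kcnf1, Kcnj8, Kcns2 and Kcnv1, from 1.59 down to 0.65. Of these, 5 are among the 8 genes higher in the pull-down. Both lists need values above the same supernatant arrays, so the overlap is not an independent result. The 5 were Kcna3, Kcnip1, Kcnc2, Kcng2 and Kcnn1 (−0.63 to −1.05); leaving out 1 array at a time moved that count between 0 (without supernatant 15 or 13) and 8 (without sleep-deprived pull-down 1).

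For other ion channels and for partners, the shares to read the counts against are the 11.9% of all genes higher and the 56.7% lower in both. Of 21 measured proteins known to assemble with, anchor or regulate potassium channels, 4 were higher in both and 9 lower: Amigo1, a partner of the delayed rectifier (2.16 ± 0.12 against whole brain), Nedd4l, a ubiquitin ligase of ion channels (2.13 ± 0.17), Adam23 (1.98 ± 0.13) and Cntnap2, which clusters Kcna1 and Kcna2 beside the node (1.01 ± 0.17), were higher, and the scaffold Dlg4 (−2.43 ± 0.26) and Cntn2 (−2.45 ± 0.17) were lower. Of 14 sodium, leak and HCN channel genes, 5 were higher, the pore subunits Scn1a (1.26), Scn2a (1.64) and Scn3a (0.89), the sodium leak channel Nalcn (1.40) and the auxiliary Scn3b (1.36), and 6 were lower. Of 13 pumps and cotransporters that move potassium, 1 was higher, Slc12a2 (0.56 ± 0.16), and 7 were lower, Atp1b2 the lowest of them (−2.96 ± 0.33). Of 10 neuronal markers 1, Rbfox3 (1.45), was higher in both and 5 were lower; 7 of 9 oligodendrocyte and 8 of 10 microglial markers were lower and none higher.

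Sleep deprivation called no potassium channel gene in either extract. In the pull-down, limma gave 0 genes past the threshold (0% of all genes in either direction) and 1 at an unadjusted p under 0.05, where 1.07% of all genes were, 0.687% higher and 0.385% lower. That gene was Kcnd1, an A-type channel: it read 4.53, 5.18 and 6.00 in the sleep-deprived and 5.34, 5.93 and 6.45 in the control pull-downs. The difference was −0.66 ± 0.28 (unadjusted p = 0.029, limma adjusted p = 1), and the groups overlapped. The next smallest p-values belonged to Kcnf1 (0.41 ± 0.31), Kcnc2 (0.33 ± 0.26) and Kcnk1 (0.26 ± 0.21) with positive and Kcns2 (−0.29 ± 0.22) and Kcnh3 (−0.35 ± 0.28) with negative differences, all with unadjusted p of 0.196 or more.

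In whole brain, 0 genes passed (0.0605% of all genes were higher and 0.0055% lower), and 2 were higher and 11 lower at an unadjusted p under 0.05, where 2.59% and 7.97% of all genes were. Kcnj9 had the smallest p. It read 10.69, 10.76, 10.74 and 10.71 after sleep deprivation and 9.93, 9.59, 9.79 and 10.73 in controls, so that 1 control, number 25, lay within the sleep-deprived range. The difference was 0.72 ± 0.19 (unadjusted p = 0.00244, limma adjusted p = 0.274), and without control 25 it was 0.96 ± 0.12 with a limma adjusted p of 0.0313, Kcnj9 then being the only member past the threshold. Leaving out the control that lies within the sleep-deprived range widens the difference by construction, so this fit is no support for it. Leaving out any other single whole-brain array gave 0 members past the threshold. Another Kcnj9 probe set, 1428602_at, moved the opposite way, reading 7.29, 7.13, 7.17 and 7.24 against 7.68, 7.28, 7.69 and 7.76 (−0.40 ± 0.12, unadjusted p = 0.00586, limma adjusted p = 0.333). The used probe set is the one with the wide range among the pull-downs, where sleep deprivation gave −0.58 ± 0.85.

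The other gene with a positive difference was Kcng4, at 0.37 ± 0.17 (unadjusted p = 0.0493, limma adjusted p = 0.456). The negative ones included Kcns1, a silent subunit, which read 5.53, 5.60, 5.55 and 5.89 after sleep deprivation and 5.89, 5.91, 6.30 and 6.01 in controls (−0.39 ± 0.13, limma adjusted p = 0.347). The others named here were Kcnj13 (−0.35 ± 0.13), the noncoding Kcnmb4os1 (−0.35 ± 0.14), Kcnj8 (−0.59 ± 0.25) and Kcnd1 (−0.38 ± 0.16), with limma adjusted p of 0.381 to 0.426. Kcnd1 was the only gene at an unadjusted p under 0.05 in both extracts at the probe set that stands for it, 1446556_at. In the pull-down its other 2 probe sets gave differences of the opposite sign (0.15 at 1455514_at and 0.08 at 1421538_at), and in whole brain −0.13 and −0.31. Kcnip2, next by p among positive differences, gave 0.22 ± 0.11 (limma adjusted p = 0.493). For 3 genes, Kcna4, Kcnh3 and Kcnh8, all 4 sleep-deprived arrays lay below all 4 controls (4.14% of all genes), with unadjusted limma p of 0.22, 0.0859 and 0.129; none of the 84 lay above (2.42% of all genes), and in the pull-down 0 genes separated (0.055% above and 0.0165% below over all genes).

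Over all 167 probe sets of the family, 0 passed the threshold in whole brain, and 2 were higher and 20 lower at an unadjusted p under 0.05, where 2.1% and 8.83% of all probe sets were. The smallest p belonged to a second probe set of Kcns2, 1421342_at, singled out after its values were seen. It read 6.43, 6.38, 6.08 and 6.57 after sleep deprivation and 7.34, 6.88, 6.94 and 6.79 in controls, without overlap (−0.62 ± 0.14, unadjusted p = 0.00079, limma adjusted p = 0.203), whereas the used probe set gave −0.16 ± 0.14. The dim probe sets of Kcnq5 (1427426_at, −0.56 ± 0.14) and Kcna4 (1422255_at, −0.46 ± 0.13) were the next lower ones (adjusted p = 0.236 and 0.302), with 0.04 and −0.12 at the used probe sets.

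**Figure D5:**
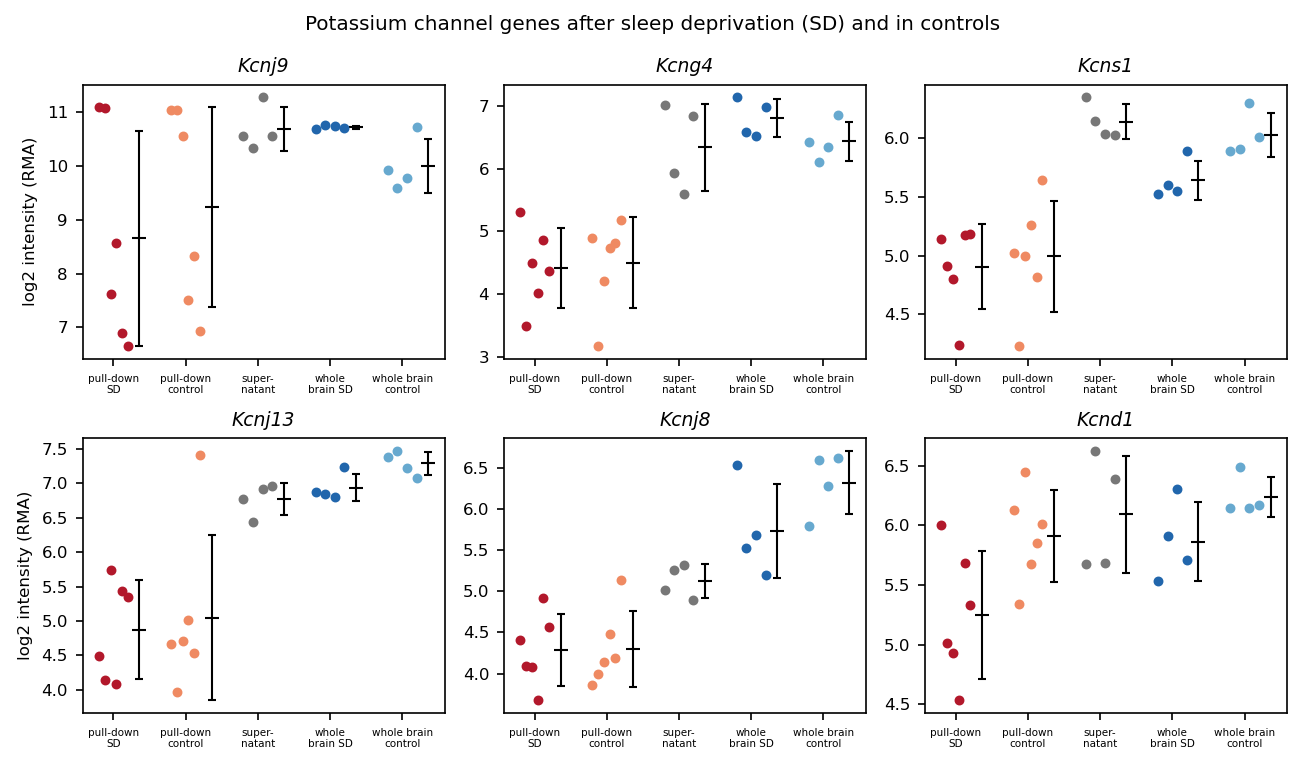
Log2 intensity of 6 potassium channel genes with an unadjusted p under 0.05 in whole brain, with 1 point per array in the 5 groups (SD stands for sleep deprivation) and the mean ± standard deviation beside each group; vertical axes differ between panels and do not start at 0. In whole brain Kcnj9 lies at 10.69 to 10.76 after sleep deprivation with 1 control at 10.73, and its pull-down arrays fall into a high and a low set in both conditions.

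The response to sleep deprivation was not shown to differ between extracts for any member: 0 passed the interaction test and 0 had an unadjusted p under 0.05, where 0.357% of all genes did. The smallest p-values were those of Kcnj8 (0.58 ± 0.41), Kcnv1 (0.31 ± 0.26) and Kcnj9 (−1.30 ± 1.18), each as the pull-down effect minus the whole-brain effect, with unadjusted limma p of 0.17, 0.235 and 0.283 and an adjusted p of 1 for each. The standard error of a sleep effect was larger in the pull-down than in whole brain for each gene named here, 0.28 against 0.16 for Kcnd1 and 0.85 against 0.19 for Kcnj9.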

How the data were processed

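The authors deposited log2 intensities of 24 Affymetrix arrays, normalized by RMA with the affy package per the submitters' processing notes. Software versions are unknown. Even so, the deposited arrays did not share a common distribution. Within the 12 pull-downs the array median ran from 4.37 to 5.70 and the standard deviation from 1.61 to 2.34. Whether all arrays were normalized together is unknown, and calls on the deposited scale include these array-wide differences. Of 45101 probe sets, 64 controls were left out and 45037 tested. Gene symbols came from the platform annotation of 2016 (34945 probe sets with 1 symbol, 932 with several and 9160 with none, the latter both unnamed here), and all 84 members matched RefSeq.

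Extract differences were fitted in limma 3.58.1 (R 4.3.3) over 24 arrays and 5 groups with equal weight of sleep-deprived and control means, sleep effects on their own arrays and the interaction on 20 arrays, with Benjamini-Hochberg adjustment over all probe sets and a threshold of 0.05. The script was tested on simulated data. No background level or probe quality was recomputed from scans; the number of arrays limits the precision. The labels describe separate mice per pull-down and whole-brain array; which mice gave the supernatants is not used here.

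Genes were named by rule: those higher than both references, the 12 with the largest lower difference, the brightest of each class, and the smallest p-values of each sleep comparison. Members and lists were chosen with earlier results of these data known. Alternatives were other scalings, array weights, moderation with trend, a filter (above the array median in at least 4 arrays), other probe sets and left-out arrays. Control-only, sleep-deprived-only and 20-array fits were added after seeing the data.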

Additional observations from a re-analysis of the deposited data

Results flagged for a closer look

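In groups of 4 to 6 arrays, 1 array stood apart from the rest of its group in 13 of 150 sets of a gene and a group (30 named genes); chance gives about 1 in 20. In the pull-downs of control mice, array 11 was low for Kcnt2 (8.27) and Kcnc2 (8.77) and high for Kcnj13 (7.40), array 3 was high for Kcnj6 (7.72) and Kcnip2 (9.95), and array 13 was high for Kcnv1 (7.91). In the sleep-deprived pull-downs, array 1 was high for Kcnab1 (7.86), Kcnip1 (7.73) and Kcnh7 (8.54). Supernatant 13, the one with conflicting labels, was high for Kcnh1 (8.86) and low for Kcnf1 (7.44). In control whole brain, array 23 was low for Kcnip2 (8.99) and array 24 was high for Kcnd1 (6.49).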

How the results depend on the processing

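Quantile normalization gave 33 higher and 20 lower members against whole brain, 29 and 22 against supernatant, 25 and 14 against both, and 14 lower in whole brain than in supernatant; median centring gave 40 and 11, 38 and 13, and 31 and 6. Array weights gave 20 higher and 14 lower for whole brain against supernatant, and that lower count was 9 without the 2 pull-downs with the most 18S signal and 11 without these and control 11. Leaving out 1 array at a time gave 0 to 8 for it and 0 to 1 for sleep deprivation in whole brain. Pull-down arrays enter the comparison of whole brain with supernatant only through the spread pooled over all 24 arrays. Why the counts moved was not tested further. Against whole brain the counts stayed within 10 to 12 higher and 58 to 62 lower. Kcnip2 turned to 0.14 and 0.88 against whole brain under quantile normalization and centring, and to 0.56 against supernatant under centring; Kcnq5 turned to −3.58 and −3.64 at the probe set brightest in whole brain, and Kcnip4 to −2.37 against supernatant. Against supernatant, Kcnj9 lost its call without supernatant 16 (−1.54, adjusted p = 0.0806). The filter kept 64 of 84 members. No paired analysis was possible because the pull-down groups share 1 replicate number and the whole-brain groups none. Supernatant 13 shares its number with pull-down control 13, and this possible pairing was not used.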
